A study of Mus musculus with 22 samples.

Results

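The 8 genes described here, *Dmkn*, *Snai3*, *Tnni3*, *AI606473*, *Slc44a5*, *Wdr6*, *Cdc25a* and *Patj*, were taken from 39179 counted genes because they had some of the smallest genotype p-values when ventral striatum (STR) of *Phf8* knockout (KO) mice was compared with that of wild type (WT) mice. They were then followed in prefrontal cortex (PFC), neural progenitor cells (NPCs) and embryonic stem cells (ESCs), whose values the STR ranking did not use. RNA was sequenced from 22 samples, with 3 WT and 3 KO samples each of STR, PFC and NPCs and 2 WT and 2 KO samples of ESCs. All samples carried the strain background B6x129SvJ, and the brain tissue came from mice 2 months of age. KO animals and cells carried a *Phf8* allele lacking exons 7 and 8, made by Cre-mediated deletion in targeted clones of a male ESC line, from which the mouse line was founded. The sequenced ESCs came from outgrowths of blastocysts kept on gelatin or feeder cells, and the NPCs from embryos at E16.5, grown as a monolayer.

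PHF8 is an X-linked histone demethylase that binds histone tails at active promoters through its PHD finger and removes repressive methyl groups from histones through its JmjC domain. Mutations of the human gene cause intellectual disability with cleft lip or palate. The 8 genes belong to no common pathway. *Dmkn* encodes dermokine, a secreted protein best known from the upper epidermis, *Snai3* a zinc finger repressor of the Snail family, and *Tnni3* the cardiac form of the troponin inhibitory subunit. *Wdr6* encodes a WD repeat protein that works with the methyltransferase FTSJ1 on tRNA, *Cdc25a* a phosphatase that activates cyclin-dependent kinases, *Patj* a scaffold with many PDZ domains in the Crumbs polarity complex, and *Slc44a5* a member of the choline transporter-like family. *AI606473* is a noncoding transcript.

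The 8 genes lie on 5 autosomes of GRCm38, and 6 of them share a chromosome with another of the 8. *Slc44a5* (ENSMUSG00000028360, chr3:153973436-154271722) and *AI606473* (ENSMUSG00000093738, chr3:154330821-154334254) are both on the plus strand and stand 59.1 kb apart. Only 1 gene lies between them, *Lhx8*, which encodes a LIM homeodomain factor required for cholinergic neurons of the basal forebrain. *Lhx8* is on the minus strand, and its GENCODE start is separated from that of *AI606473* by 161 bases. The pair is thus transcribed in opposite directions from 1 short interval. Between the RefSeq starts lie 260 bases, since that of *Lhx8* is 99 bases inside its GENCODE gene. The interval between the GENCODE starts is printed here because both genes it separates were higher in KO STR. It was read from RefSeq on GRCm38.p6, 5′ to 3′ on the plus strand, with its 3 CG pairs in capitals.
Interval between *Lhx8* and *AI606473*, chr3:154330660-154330820: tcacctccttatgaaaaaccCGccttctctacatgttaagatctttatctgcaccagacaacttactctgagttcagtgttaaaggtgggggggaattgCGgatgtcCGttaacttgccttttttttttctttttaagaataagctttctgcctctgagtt

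*Wdr6* (ENSMUSG00000066357, chr9:108572311-108578739, minus strand) and *Cdc25a* (ENSMUSG00000032477, chr9:109875579-109893895, plus strand) are 1.3 Mb apart, with 44 counted genes between them. *Dmkn* (ENSMUSG00000060962, chr7:30763756-30781063, plus strand) and *Tnni3* (ENSMUSG00000035458, chr7:4518305-4524229, minus strand) are on the same chromosome but 26.2 Mb apart. *Snai3* (ENSMUSG00000006587, chr8:122454208-122460733, minus strand) and *Patj* (ENSMUSG00000061859, chr4:98395785-98719603, plus strand) each lie alone. *Wdr6* overlaps *Dalrd3* on the opposite strand by 383 exonic bases, and *Tnni3* overlaps *Dnaaf3* on the same strand by 86 exonic bases, so reads in these stretches cannot be given to 1 gene with certainty.

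RefSeq promoter entries were found for 7 of the 8 genes and not for *Snai3*. In the 250 bases before the start, *Patj* had 23 CG pairs, *Wdr6* 17, *Cdc25a* and *Slc44a5* 15 each, *Dmkn* 5, *AI606473* 4 and *Tnni3* 3, against a median of 6 over 32841 promoter windows. The RefSeq start used for *Tnni3* lies 1701 bases inside the GENCODE gene. E2F motifs, searched as TTTGGCGC or TTTCGCGC on both strands, were found in 0.655% of all windows and, among the 7 genes, in *Cdc25a* only, a known E2F target. The Snail E-box CAGGTG was found in 17.2% of windows and, among the 7, in *Patj* only. The motif TAATTA of LIM homeodomain factors, present in 4.84% of windows, was found in none of the 7. The window of *Cdc25a* is shown because it holds the rarest of the motifs, printed in capitals.
*Cdc25a*, chr9:109875329-109875578, plus strand, RefSeq GRCm38.p6: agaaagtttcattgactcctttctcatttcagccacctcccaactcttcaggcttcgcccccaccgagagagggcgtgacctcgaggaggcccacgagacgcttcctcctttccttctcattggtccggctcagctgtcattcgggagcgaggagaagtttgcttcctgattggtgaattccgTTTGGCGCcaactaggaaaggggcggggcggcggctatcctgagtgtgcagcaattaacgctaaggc

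The number of reads counted on genes ran from 5898286 to 15539811. *Phf8* itself was lower in every KO sample than in any WT sample of its tissue, with log2 fold changes of -1.37 in STR and PFC, -1.41 in NPCs and -1.79 in ESCs. Markers of striatal projection neurons summed to 2050 to 2307 CPM (a sample's counts scaled to a common depth by TMM) in WT STR and to 286 to 308 CPM in WT PFC. Pluripotency markers summed to 3628 to 4196 CPM in WT ESCs, and neural progenitor markers to 6503 to 8233 CPM in WT NPCs. A list of 15 hypothalamic markers summed to 46.4, 46.8 and 53.8 CPM in the WT and to 325, 85.8 and 66.9 CPM in the KO STR samples. KO replicate 1 thus stands apart in STR, with none of the 15 genes at 0, against 2 to 4 at 0 in the WT and 1 in each of the other KO samples. The 6 markers of cortical excitatory neurons summed to 446 to 645 CPM in WT and to 80.6 to 494 CPM in KO STR. The 9 markers of striatal projection neurons were all lower in KO STR, where they summed to 1731 to 2157 CPM. Of these, 1 had an unadjusted p under 0.05 in edgeR (8.7% of all genes), and their median log2 fold change was -0.14, against 0.002 over all genes. The 6 markers of meninges and vessels were all higher in KO STR, none at that p. In PFC the 8 oligodendrocyte markers were lower in KO, 5 of them at an FDR under 0.05 in edgeR, and summed to 2078 to 2742 CPM in WT and 1660 to 1775 CPM in KO. The part of these marker differences in the results below was not tested. The paper could not reproduce several of its top striatal differences by qRT-PCR in additional mice. It proposes that some of them came from contamination with hypothalamus. In tissue samples, a different share of cells of a type, also through the dissection, and a different amount of RNA per cell cannot be told apart.

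In STR, *Dmkn*, *Snai3* and *Tnni3* were lower in KO and the other 5 genes were higher. Among 15476 genes tested with edgeR's quasi-likelihood test they held ranks 2 to 5, 8, 9, 12 and 13 by p-value, behind *Phf8* at rank 1. The genes were chosen by these p-values, which are given as a description. *Slc44a5*, at rank 13 with an FDR of 0.262 and a log2 fold change of 0.60, was the last inside, and *Sbsn*, at rank 14 with an FDR of 0.281 and a log2 fold change of -0.79, the first outside. Ranks 6, 7, 10 and 11 went to *Npy2r*, *Rxfp1*, *Sstr2* and *Gnrh1*, of which *Rxfp1* had a log2 fold change of -1.28 in STR and of 0.64 in PFC (FDR = 0.0182 in edgeR), opposite in sign. No gene passed an FDR of 0.05 in STR (1346 at an unadjusted p under 0.05, 8.7%), whereas DESeq2 called 53 and edgeR's exact test 104. In all 8 genes the WT and KO samples did not overlap, as in 13.4% of genes tested (7.57% higher and 5.87% lower in KO).

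*Dmkn* was at 18.5, 13.1 and 19.1 CPM in the WT and 6.85, 6.61 and 6.20 CPM in the KO samples, which is a log2 fold change of -1.37 (SE 0.189). The KO samples lay close together at less than the lowest WT value. *Snai3* was at 3.80, 2.94 and 3.32 CPM in WT and 0.517, 0.648 and 0.866 CPM in KO STR, a log2 fold change of -2.30 (SE 0.340) that rested on 4 to 6 reads per KO sample. *Tnni3* was at 4.95, 3.35 and 6.23 CPM in WT and 0.775, 1.17 and 0.722 CPM in KO STR, with a log2 fold change of -2.42 (SE 0.359) and 5 to 9 reads per KO sample. *Snai3* and *Tnni3* had the largest fold changes of the 8 in STR, at the lowest counts.

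*AI606473* was at 5.75, 4.28 and 5.40 CPM in WT and 18.7, 11.9 and 13.6 CPM in KO STR, a log2 fold change of 1.51 (SE 0.223). Its highest value was in KO replicate 1, the sample with the highest hypothalamic markers. As for the sum of those markers, all its KO values were above all its WT values. Among the other genes higher in KO STR, *Cdc25a* and *Wdr6* were also highest in KO replicate 1, and *Slc44a5* and *Patj* in KO replicate 3. *Cdc25a* was at 9.90, 12.3 and 9.82 CPM in WT and 22.2, 18.5 and 19.2 CPM in KO STR, a log2 fold change of 0.90 (SE 0.155).

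*Slc44a5* was at 20.2, 19.1 and 21.3 CPM in WT and 31.0, 30.1 and 31.2 CPM in KO STR, a log2 fold change of 0.60 (SE 0.106). The spread within either genotype was small beside the distance between them, which the choice of the gene by its p-value favours. *Wdr6*, the most abundant of the 8, was at 180, 198 and 199 CPM in WT and 317, 252 and 287 CPM in KO STR, a log2 fold change of 0.57 (SE 0.0964). *Patj* was at 43.2, 42.6 and 46.4 CPM in WT and 61.5, 58.1 and 62.3 CPM in KO STR, a log2 fold change of 0.46 (SE 0.0812). With KO replicate 1 left out, the log2 fold changes were -1.40 for *Dmkn*, -2.14 for *Snai3*, -2.33 for *Tnni3*, 1.30 for *AI606473*, 0.82 for *Cdc25a*, 0.59 for *Slc44a5*, 0.48 for *Wdr6* and 0.45 for *Patj*. The hypothalamic markers of the remaining KO samples were still above those of every WT sample.

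**Figure D1:**
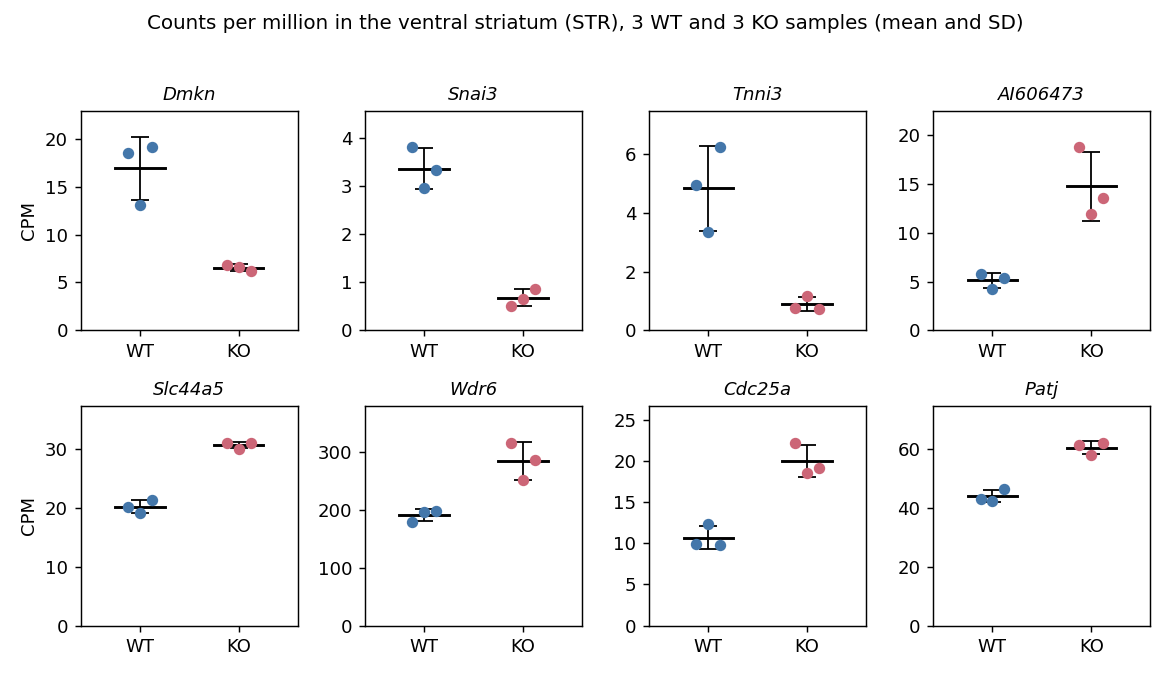
CPM of the 8 genes in each STR sample, by genotype, with the mean (bar) and SD (whiskers) of 3 samples and 1 axis per gene starting at 0. *Dmkn*, *Snai3* and *Tnni3* are lower in every KO sample and the other 5 genes are higher in every KO sample than in any WT sample.

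In PFC, which shares no library with STR, 5 of the 8 genes passed the filter on low counts. *Wdr6* rose in KO, and it was the only 1 of the 5 past an FDR of 0.05 in edgeR, where 0.638% of 15364 genes were called and 0.163% were called as higher in KO. *Slc44a5* and *Dmkn* passed an unadjusted p of 0.05 but not the FDR, while *Cdc25a* and *Patj* passed neither. At that unadjusted p, 3 of the 5 genes were called, all in the direction seen in STR, beside 11.2% of all genes in either direction. Over all genes tested in both comparisons, 7.78% were called in the direction of STR. Of the genes with the 100 smallest p-values in STR, without *Phf8* and the 8, 30 of 80 were called (37.5%). In the direction of STR it was 28 of these 80 (35.0%).

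*Wdr6* was at 132, 131 and 131 CPM in WT and 173, 165 and 196 CPM in KO PFC. The WT samples were nearly equal. All KO samples lay above them, as was the case for 7.74% of genes in PFC. The log2 fold change was 0.44 (SE 0.0777), a 1.35-fold higher level, with FDR = 0.0286 in edgeR's quasi-likelihood test. The call depended on the set of samples. The FDR was 0.0961, 0.100 and 0.250 without KO replicates 1, 2 and 3, 0.0550 and 0.105 without WT replicates 1 and 2, and 0.0340 without WT replicate 3, and it was 0.0556 when both brain regions were fitted together, whereas the log2 fold change stayed between 0.36 and 0.50. *Dalrd3*, which overlaps *Wdr6* on the other strand, had log2 fold changes of 0.00 (SE 0.0935) in STR and -0.09 (SE 0.0824) in PFC, against 0.57 and 0.44 for *Wdr6*.

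*Slc44a5* was at 15.2, 12.5 and 9.72 CPM in WT and 20.8, 17.7 and 20.1 CPM in KO PFC. The genotypes did not overlap, which was the case upward for 7.74% of genes in PFC. Its log2 fold change was 0.63 (SE 0.157), close to the 0.60 of STR, with FDR = 0.110 in edgeR's quasi-likelihood test. In edgeR's exact test the FDR was 0.0144, and without the filter on low counts it was 0.0108. *Dmkn* was at 3.50, 1.64 and 1.39 CPM in WT and 1.36, 0.718 and 1.07 CPM in KO PFC. The lowest WT and the highest KO sample of *Dmkn* were nearly equal, and the genotypes did not overlap, which was the case downward for 9.35% of genes. The log2 fold change was -1.06 (SE 0.422), with FDR = 0.351 in edgeR, and it was -0.55 without WT replicate 1, which had the highest value.

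*Cdc25a* was at 15.1, 16.3 and 12.5 CPM in WT and 18.5, 16.9 and 14.5 CPM in KO PFC, a log2 fold change of 0.17 (SE 0.144) with FDR = 0.747 in edgeR. *Patj* was at 9.78, 11.8 and 9.38 CPM in WT and 8.79, 9.93 and 9.25 CPM in KO PFC, a log2 fold change of -0.16 (SE 0.157) with FDR = 0.786 in edgeR. For both genes the genotypes overlapped. Whether the genotype effect differed between STR and PFC was not tested, since the STR values chose the genes.

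The remaining 3 genes were too low for the test in PFC. *Snai3* had 28, 14 and 5 reads in the WT and 5, 4 and 7 reads in the KO samples, so that the genotypes overlapped. *Tnni3* had 5, 6 and 8 reads in WT and 3, 3 and 1 reads in KO PFC, with no overlap. Without the filter on low counts, the log2 fold change in edgeR's quasi-likelihood test was -1.49 (FDR = 0.100) for *Snai3* and -1.39 (FDR = 0.486) for *Tnni3*. *Dnaaf3*, which shares exonic bases with *Tnni3*, had a log2 fold change of -0.91 (FDR = 0.397 in edgeR) in PFC and of -0.20 (SE 0.383) in STR. *AI606473* had 0 reads in all 6 PFC samples.

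**Figure D2:**
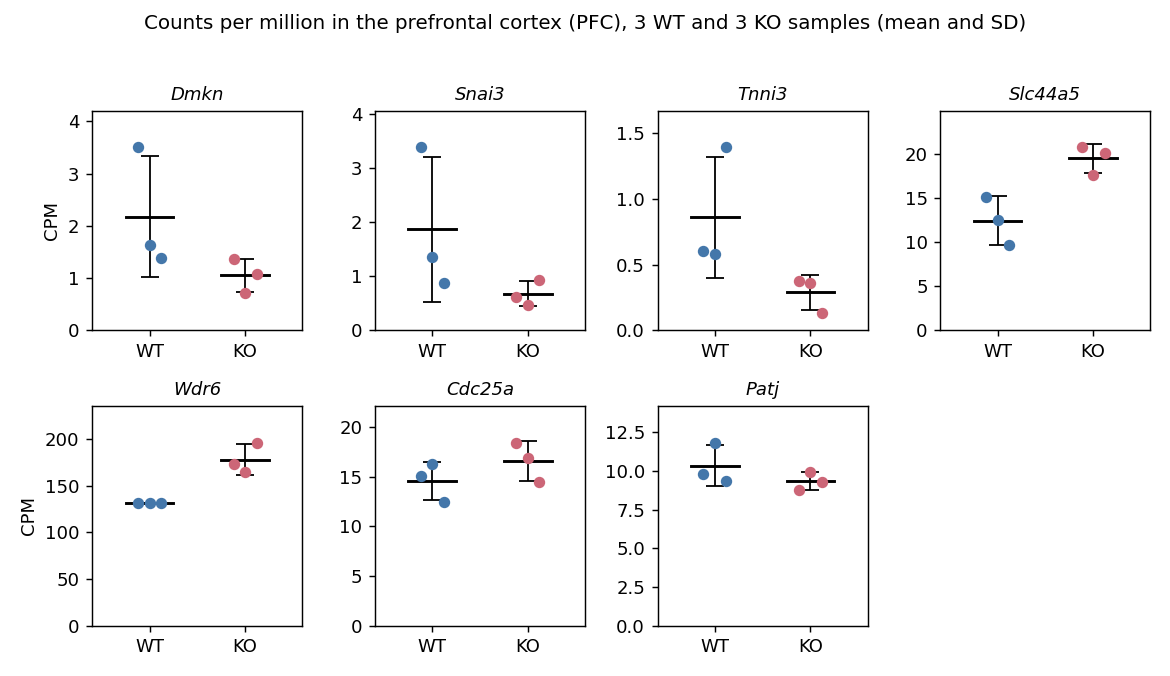
CPM in each PFC sample of the 7 genes with any reads there, by genotype, with the mean (bar) and SD (whiskers) of 3 samples and 1 axis per gene starting at 0. *Wdr6* and *Slc44a5* are higher in every KO sample, *Dmkn* and *Tnni3* are lower in every KO sample, and *Snai3*, *Cdc25a* and *Patj* overlap.

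In NPCs none of the 5 genes tested passed an FDR of 0.05 or an unadjusted p of 0.05 in edgeR. Of all 14351 genes tested, 1 passed that FDR (0.00697%), or 3 with the replicate number as a block, and 3.03% passed the unadjusted p. The FDR of each of the 5 genes was 0.9998 in edgeR. *Wdr6* was at 228, 223 and 234 CPM in WT and 241, 283 and 242 CPM in KO NPCs. The genotypes did not overlap, as was the case upward for 3.81% of genes, and the log2 fold change was 0.16 (SE 0.0892). *Slc44a5* was at 8.26, 6.31 and 6.59 CPM in WT and 7.22, 10.8 and 9.60 CPM in KO NPCs, with overlap, and a log2 fold change of 0.38 (SE 0.207).

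*Tnni3* was at 2.56, 1.58 and 1.49 CPM in WT and 3.03, 2.87 and 2.24 CPM in KO NPCs, a log2 fold change of 0.53 (SE 0.293). Its sign was opposite to that in STR. *Cdc25a* was at 37.1, 46.6 and 34.4 CPM in WT and 36.7, 39.7 and 30.3 CPM in KO NPCs, a log2 fold change of -0.15 (SE 0.154). *Patj* was at 4.84, 4.15 and 6.53 CPM in WT and 5.12, 6.10 and 5.75 CPM in KO NPCs, a log2 fold change of 0.13 (SE 0.218). The genotypes overlapped for *Tnni3*, *Cdc25a* and *Patj*. Within the 3 same-numbered pairs, *Tnni3* and *Wdr6* were higher and *Cdc25a* lower in each KO sample than in its WT sample. *Slc44a5* and *Patj* changed sign between pairs. The share of all genes that moved 1 way in every pair was not counted. When the pairs were fitted as blocks, the FDR in edgeR was 0.495 for *Tnni3* and 0.548 for *Cdc25a*.

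In ESCs, with 2 samples per genotype, none of the 5 genes tested passed an FDR of 0.05 or an unadjusted p of 0.05. No gene at all passed that FDR in edgeR's quasi-likelihood test (171 of 15080 at an unadjusted p under 0.05, 1.13%), against 3 with DESeq2, 2 with the exact test and 513 when the replicate number was a block. None of the 5 genes was among the 513, with FDRs in edgeR of 0.720 for *Cdc25a*, 0.803 for *Tnni3*, 0.920 for *Patj*, 0.988 for *Wdr6* and 0.996 for *Snai3* in that fit. *Wdr6* was at 88.7 and 92.8 CPM in WT and 91.8 and 90.2 CPM in KO ESCs, a log2 fold change of 0.00 (SE 0.0767). *Snai3* was at 9.27 and 8.30 CPM in WT and 8.88 and 8.72 CPM in KO ESCs, a log2 fold change of 0.00 (SE 0.173). For both genes the KO values lay between the WT values.

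*Cdc25a* was at 197 and 158 CPM in WT and 212 and 156 CPM in KO ESCs, a log2 fold change of 0.05 (SE 0.203). *Patj* was at 17.5 and 13.6 CPM in WT and 18.6 and 11.7 CPM in KO ESCs, a log2 fold change of -0.04 (SE 0.296). In these genes the samples of replicate 1 were higher than those of replicate 2 in both genotypes. *Tnni3* was at 4.85 and 4.48 CPM in WT and 5.28 and 5.06 CPM in KO ESCs, a log2 fold change of 0.15 (SE 0.210). Its genotypes did not overlap, as was the case upward for 11.9% of genes with 2 samples against 2.

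Over the genes tested, the sign of the KO effect was that of STR for 4 of 5 genes in PFC, 3 of 5 in NPCs and 2 of 5 in ESCs. Among all genes tested in both comparisons the shares were 60.3% in PFC, 55.2% in NPCs and 50.9% in ESCs. Among the other genes with the 100 smallest p-values in STR, 63 of 80 moved alike in PFC (78.8%), 37 of 60 in NPCs (61.7%) and 25 of 51 in ESCs (49.0%). No test was made of these counts, since the genes were chosen with results known. *Slc44a5* had a positive log2 fold change in STR, PFC and NPCs, where it was tested, and *Wdr6* in all 4 comparisons, with a value near 0 in ESCs, where the sign changed with the filter.

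**Figure D3:**
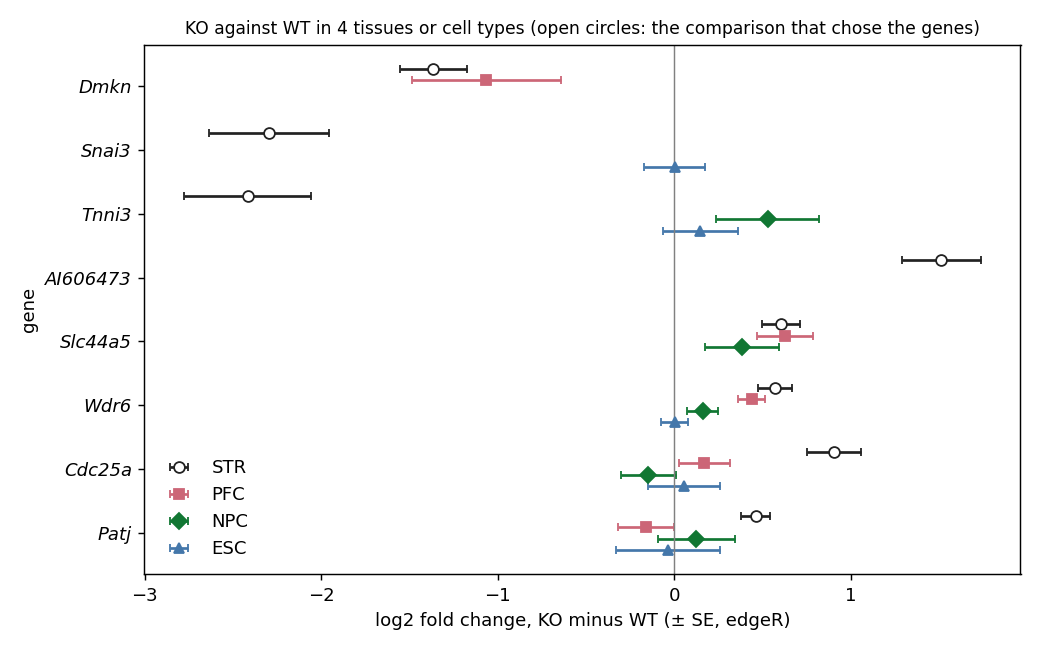
Log2 fold change (KO minus WT) with its SE from edgeR for each gene in each tissue or cell type where it passed the filter on low counts. Open circles mark STR, which chose the genes, and no fit shown used a replicate block. In PFC *Wdr6*, *Slc44a5* and *Dmkn* lie on the side of STR, more than 2 SE from 0, while all values in ESCs lie within 1 SE of 0.

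In WT samples the 8 genes had different tissue profiles, compared here as RPKM (CPM divided by the exon length in kilobases), which allows genes to be compared. *AI606473* was counted only in STR, at 2.16 ± 0.322 RPKM (SD, n = 3), and had 0 reads in each of the 16 samples of the other tissue and cell types, which allows at most 0.194 to 0.521 CPM per sample at 3 reads. *Dmkn* was highest in STR at 7.72 ± 1.51 RPKM, followed by PFC at 0.992 ± 0.527 and ESCs at 0.146 ± 0.0133, with 0 reads in NPCs. *Patj* was highest in STR at 3.36 ± 0.156 RPKM, followed by ESCs at 1.19 ± 0.212, PFC at 0.789 ± 0.101 and NPCs at 0.395 ± 0.0935. For *Dmkn* and *Patj* no neighbouring groups in this order overlapped.

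*Slc44a5* was highest in STR at 2.83 ± 0.152 RPKM, followed by PFC at 1.75 ± 0.384, NPCs at 0.987 ± 0.147 and ESCs at 0.0224 ± 0.00204. *Wdr6* was the highest of the 8 in every tissue except ESCs, with 54.9 ± 1.33 RPKM in NPCs, 46.2 ± 2.56 in STR, 31.6 ± 0.0159 in PFC and 21.8 ± 0.702 in ESCs. *Cdc25a* was higher in both cultured cell types than in brain, with 22.1 ± 3.46 RPKM in ESCs, 4.91 ± 0.800 in NPCs, 1.82 ± 0.240 in PFC and 1.33 ± 0.176 in STR. Neighbouring groups of these 3 genes did not overlap.

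*Snai3* was highest in ESCs at 5.40 ± 0.423 RPKM, and STR at 2.06 ± 0.263 and PFC at 1.15 ± 0.819 overlapped. No WT NPC sample had a read of *Snai3*. *Tnni3* was at 2.35 ± 0.700 RPKM in STR and 2.26 ± 0.124 in ESCs, which overlapped, and at 0.909 ± 0.289 in NPCs and 0.415 ± 0.224 in PFC. Brain tissue and cultured cells may have been counted with different strand settings, so levels are compared between them only as a description.

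**Figure D4:**
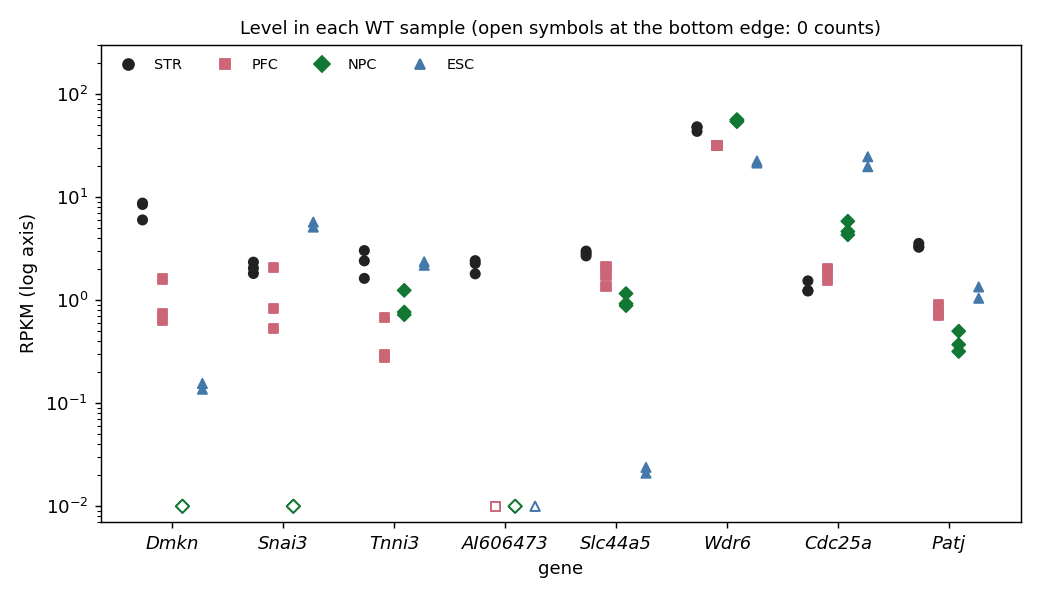
RPKM (log axis) of the 8 genes in each WT sample of STR, PFC, NPCs and ESCs. *AI606473* has reads only in STR, *Wdr6* lies above 20 RPKM in all samples, and *Cdc25a* is highest in ESCs.

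The genes whose level followed each of the 8 most closely were taken by Pearson's r of log2(CPM + 0.5) over all 22 samples among 18079 genes, a measure set largely by differences between tissues. *AI606473* was closest to its neighbour *Lhx8* (r = 0.994), followed by *A730046J19Rik* (r = 0.983). *Cdc25a* was closest to *Brd3* and *Polr2b* (both r = 0.989), and *Slc44a5* to *Adck2* (r = 0.986) and *Grik2* (r = 0.985). For *Dmkn* they were *Cd4* (r = 0.974) and *Retn* (r = 0.967), and for *Patj* *Gbx1* (r = 0.969) and *Fam196b* (r = 0.968). *Snai3* was closest to *Cass4* (r = 0.964) and *Lipo2* (r = 0.955), *Wdr6* to *Sesn3* (r = 0.957) and *Robo1* (r = 0.945), and *Tnni3*, the least matched, to *Spg21* (r = 0.887) and *Atf3* (r = 0.876).

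Adjacent to the 8 genes, *Sbsn* and *Lhx8* had ranks 14 and 25 in STR and the sign of the genes beside them. *Lhx8*, between *Slc44a5* and *AI606473*, was at 22.78, 16.46 and 21.03 CPM in WT and 54.1, 32.3 and 38.7 CPM in KO STR, a log2 fold change of 1.05 (SE 0.200) at rank 25. Its highest value was in KO replicate 1, as for *AI606473*. *Lhx8* had 0 to 2 reads per PFC sample, whereas *Slc44a5* had 56 to 168 reads per sample there. On chromosome 7, *Sbsn*, which encodes the epidermal secreted protein suprabasin, ends 7.62 kb before *Dmkn* on the same strand. *Sbsn* was at 25.7, 24.6 and 28.1 CPM in WT and 13.9, 17.8 and 13.6 CPM in KO STR, a log2 fold change of -0.79 (SE 0.141), and the genotypes did not overlap. In PFC its genotypes overlapped, with a log2 fold change of -0.15 (SE 0.191). *Krtdap*, the third epidermal gene of this locus, had 0 reads in STR. *Atp4a*, 38.2 kb from *Dmkn*, had a log2 fold change of 1.11 in STR, opposite in sign to *Dmkn*. *Tnnt1*, 1.92 kb from *Tnni3*, had a log2 fold change of -1.49 (SE 0.684) in STR. Its genotypes did not overlap there, as was the case downward for 5.87% of genes. *Rnf166*, 5.41 kb from *Snai3*, had a log2 fold change of -0.18 (SE 0.0920) in STR, with overlap.

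**Figure D5:**
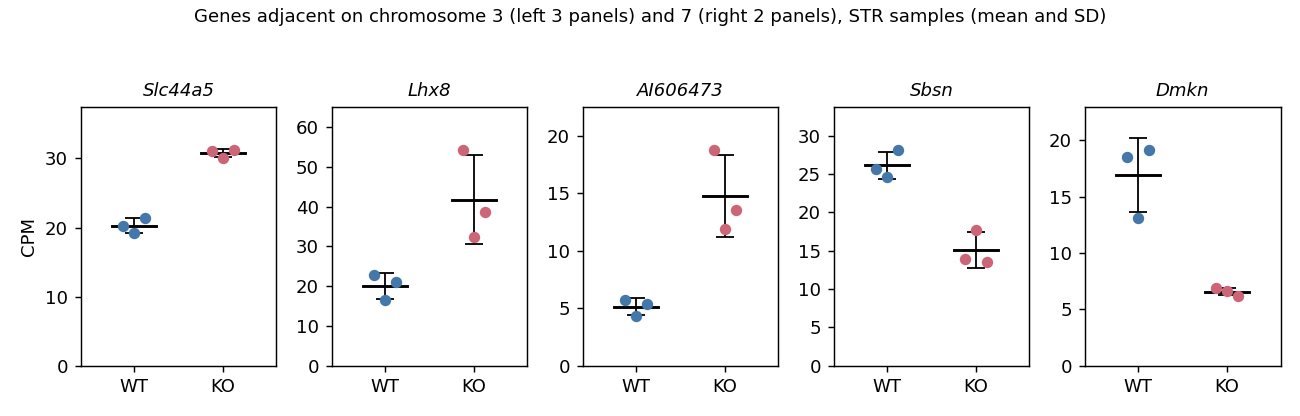
CPM in each STR sample of *Slc44a5*, *Lhx8* and *AI606473*, adjacent on chromosome 3, and of *Sbsn* and *Dmkn*, adjacent on chromosome 7, with the mean (bar) and SD (whiskers) of 3 samples per genotype. The 3 genes of chromosome 3 are higher and the pair on chromosome 7 is lower in every KO sample than in any WT sample.

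Genes near the 8 genes were counted as a description, without a test. Within 1 Mb of the 8 genes, 12 of 245 tested genes had an unadjusted p under 0.05 in STR (4.9%, against 8.7% of all genes) and 18 of 244 in PFC (7.38%, against 11.2%). In NPCs it was 5 of 227 (2.2%, against 3.03%) and in ESCs 1 of 240 (0.417%, against 1.13%). Within 2 Mb the share in ESCs was 1.16%, while in STR, PFC and NPCs it was below that of all genes at 500 kb and 2 Mb also. By gene, the share within 1 Mb was highest in PFC for *Slc44a5* (3 of 9) and *AI606473* (2 of 7), whose windows overlap. *Mag*, which encodes a myelin glycoprotein and lies 118 kb from *Dmkn*, was the only neighbour past an FDR of 0.05 in PFC, with a log2 fold change of -0.60 (FDR = 0.0240 in edgeR), and is 1 of the oligodendrocyte markers that were lower there. Near *Snai3*, *Trhr2* had log2 fold changes of -0.93 in STR and -0.76 (FDR = 0.307 in edgeR) in PFC. Of 42 genes tested within 1 Mb of *Snai3* in PFC, 4 had an unadjusted p under 0.05 (9.52%). Of these, 3 were higher in KO and 1, *Trhr2*, was lower.

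Related genes were described by lists around each of the 8 genes, in which these genes themselves are counted. In STR and PFC no list member other than *Wdr6* passed an FDR of 0.05 in edgeR. Of 9 genes of tRNA methylation, *Wdr6* was the only 1 with an unadjusted p under 0.05 in either brain region. Its partner *Ftsj1* had log2 fold changes of -0.08 (SE 0.0881) in STR and -0.02 (SE 0.0896) in PFC. The list median was -0.02 in both regions.

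Of 12 genes of choline transport and use, 10 were tested in each brain region. *Slc44a5* alone had an unadjusted p under 0.05 in STR. In PFC *Slc44a1*, the widely expressed choline transporter, had a log2 fold change of -0.33 (FDR = 0.0691 in edgeR), and *Chpt1*, which makes phosphatidylcholine, of -0.29 (FDR = 0.130 in edgeR), both opposite in sign to *Slc44a5*. Their list medians were 0.09 in STR and -0.06 in PFC.

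Among 15 genes of the Crumbs and PAR complexes, 14 were tested in STR, and *Patj*, which was chosen by its STR p-value, and *Crb1* and *Mpp5* were higher in KO at an unadjusted p under 0.05, beside 8.7% of all genes in either direction. *Crb1*, a transmembrane protein of the complex that contains PATJ, had a log2 fold change of 1.14 (SE 0.280) and *Mpp5*, the adaptor that links them, of 0.29 (SE 0.107). No gene of this list had an unadjusted p under 0.05 in PFC. Of 14 cell cycle genes around *Cdc25a*, 11 were tested in STR, and *Cdc25a* and *Wee1*, the kinase that opposes CDC25, were higher there at that p, with a log2 fold change of 0.40 (SE 0.153) for *Wee1*. *Cdc25a* was chosen by its STR p-value, and 8.7% of all genes passed that p. The paralogue *Cdc25b* had a log2 fold change of -0.14 (SE 0.144) in STR. In NPCs 13 of the 14 cell cycle genes were lower in KO, none at an unadjusted p under 0.05. Their median log2 fold change was -0.11, against 0.0032 over all genes, and the share of all genes lower in KO was not counted. The sums of the 14 genes overlapped, at 1009 to 1195 CPM in WT and 881.5 to 1143 CPM in KO NPCs.

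Of 8 troponin genes, 5 were tested in STR and 4 in PFC. *Tnni3* was the only 1 with an unadjusted p under 0.05 in STR, and *Tnni1*, the slow skeletal form of the inhibitory subunit, was the only 1 in PFC, with 9.76 ± 0.527 CPM in WT and 4.62 ± 2.36 CPM in KO (SD, n = 3) and a log2 fold change of -1.07 (FDR = 0.131 in edgeR). In the Snail family, *Scrt2*, a neuronal repressor, had log2 fold changes of -0.32 (SE 0.138) in STR and -0.36 (SE 0.160) in PFC, past an unadjusted p of 0.05 in both regions and past the FDR threshold in neither (FDR = 0.570 and 0.427 in edgeR). *Scrt1* had log2 fold changes of -0.04 (SE 0.0877) in STR and -0.15 (SE 0.0837) in PFC. *Snai1* and *Snai2* were too low for the test in both brain regions.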

How the data were processed

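The authors aligned reads with STAR (version not given in the sources used here) to mm10/GRCm38 and counted them on genes of Ensembl release 75 with HTSeq. What they deposited is 1 table per sample of raw counts, without normalization. The strand setting of the brain counts is not given in the sources used here. Groups came from the sample labels, which give no litter or batch, and no source says that samples of a group came from separate animals or cultures, so p-values measure the spread between these samples only. Positions came from GENCODE M21 (37693 of 39179 identifiers matched). The 8 genes and all lists were chosen with earlier results of these data known.

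Each tissue was fitted separately for KO against WT in edgeR 4.0.16 (R 4.3.3): TMM, filterByExpr, robust quasi-likelihood test without a replicate block, Benjamini-Hochberg adjustment over all genes tested, FDR under 0.05. Genes named are the 8, listed relatives, genes of neighbouring rank, the 2 most alike genes and up to 3 neighbours with the smallest p in PFC. *Lhx8*, *Dalrd3*, *Dnaaf3*, *Atp4a* and *Rnf166* were named after their values were seen. The alternatives were DESeq2 1.42.0, edgeR's exact test, a minimum of 10 counts in each sample, no filter, RLE size factors, both brain regions in 1 fit, a log2 fold change over 1, each replicate left out, and the replicate number as a block. Same-numbered WT and KO samples deviated together in NPCs (r from 0.536 to 0.719), so the numbers were taken to pair them. The SEs and p-values given for NPCs and ESCs come from the fit without that pairing unless the block is named.

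In simulated counts 200 genes were changed 2-fold, all drawn from genes at or above the median mean expression of the tissue. Of these changes the test recovered 100% in STR and PFC (15476 and 15364 genes), 92.5% in NPCs (14351) and 21% in ESCs (15080). In the real STR samples *Phf8*, with a log2 fold change of -1.37, had an FDR of 0.0956 in edgeR, and no gene passed 0.05. The simulated shares therefore do not give the power for the 8 genes. No gene below the median expression was changed, so these shares do not cover genes with few reads, such as *Snai3* and *Tnni3*. Counting limits cover counting error only.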

Additional observations from a re-analysis of the deposited data

Results flagged for a closer look

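*Tnni3* was lower in every KO than in every WT sample of STR, with a log2 fold change of -2.42 (SE 0.359). In ESCs *Tnni3* was higher in every KO than in every WT sample, with a log2 fold change of 0.15 (SE 0.210). Such separation was found downward for 5.87% of genes in STR. With 2 samples against 2 in ESCs, it was found upward for 11.9%. The ESC difference was smaller than its SE (unadjusted p = 0.517 in edgeR), so a reversal of direction is not shown. The STR value chose the gene. The difference between the 2 contrasts was not tested.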

How the results depend on the processing

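Counts of genes at an FDR under 0.05 in STR, PFC, NPCs and ESCs were 0, 98, 1 and 0 in the reported fits, 53, 196, 5 and 3 with DESeq2 and 104, 375, 2 and 2 with the exact test. Without a filter they were 27 in STR, 379 in PFC and 2 in NPCs, and with both brain regions fitted together 13 in STR and 21 in PFC. A log2 fold change over 1 left 18 in PFC. The replicate block gave 8 in STR, where *AI606473* passed with an FDR of 0.0484, 3 in NPCs and 513 in ESCs, and it changed no other call of the 8 genes. Same-numbered samples correlated at 0.886 in ESCs with 2 pairs, and at a mean of 0.0593 in STR and 0.0251 in PFC. Leaving out each replicate gave 0 to 2 genes in STR, 2 to 154 in PFC, 0 in NPCs and 0 in ESCs. The causes of these shifts were not tested. In STR 25 values of the 8 genes gained a call under the alternatives and 77 stayed the same. In edgeR's exact test each of the 8 genes passed in STR, with FDRs from 1.0e-05 to 0.0058. These STR calls are a description only, since the STR values chose the genes. In PFC 56 of 64 values of the 8 genes under the alternatives kept their direction and their side of the threshold, 6 lost the call (*Wdr6*) and 2 gained it (*Slc44a5*). Signs near 0 changed in ESCs and NPCs: without a filter *Snai3* and *Wdr6* in ESCs were at -0.0002 and -0.0009, and with replicates left out *Snai3* ranged from -0.0756 to 0.0786, *Wdr6* from -0.0358 to 0.0354, *Cdc25a* from -0.1833 to 0.2545 and *Patj* from -0.4154 to 0.2591 in ESCs, and *Patj* from -0.0111 to 0.3294 in NPCs. The count of genes with the sign of STR ranged from 1 to 3 in ESCs with replicates left out. *Snai3*, *Tnni3* and *AI606473* were too low for the test in PFC, where samples had 5898286 to 10148073 reads on genes, against 7159094 to 8594441 in STR. ESCs had 2 samples per genotype, and the biological coefficient of variation there was 31.4% without and 4.37% with the replicate block. In NPCs it was 21.2% without and 10.1% with the block.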
